A study of Mus musculus with 8 samples.

Results

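The Bcl2 family decides whether a developing neuron keeps or loses the integrity of its mitochondria, and 10 of its genes were followed here in embryonic sympathetic ganglia with normal and with reduced *Isl1*. The 10 genes were taken by symbol from a fixed list. They are the survival genes *Bcl2*, *Bcl2l1* and *Mcl1*, the executioner genes *Bax* and *Bak1*, and the genes of the BH3-only proteins *Bcl2l11*, *Bbc3*, *Pmaip1*, *Bid* and *Hrk*. Of these 10, 9 had a row among the 13506 genes of the E11.5 table and the same number among the 13413 genes of the E14.5 table. *Pmaip1*, which encodes Noxa, a partner of MCL1, had no row at either stage. The unit is FPKM, the fragments per kilobase of transcript scaled to the size of the library. Every row in both tables reaches 1 FPKM in one or both genotypes, so *Pmaip1* is reported as below that limit.

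At E11.5 the mutants were *Isl1* CKO embryos (*Wnt1-Cre;Isl1* f/f, labelled Isl1-/-), in which the Cre driver removes *Isl1* from neural crest lineages, and the controls were *Wnt1-Cre;Isl1* +/+ embryos, labelled wild type. All embryos of that stage carried a *Rosa26-tdTomato* reporter as well as *Wnt1-Cre*. At E14.5 the mutants were *Isl1* hypomorphic embryos (*Isl1* f-neo/f-neo, labelled only as an *Isl1* mutation), whose *Isl1* is reduced in every cell, and the controls were wildtype embryos. Each genotype had 2 libraries of whole ganglia, each pooled from about 10 embryos, and the files combine both libraries into a single FPKM per gene. No value of a single library is given, so the differences below were computed without a replicate check, an error or a p-value. The authors' own p-values stand in the tables and were not used here. The number of reads behind a value is unknown. A difference is written as the log2 ratio of mutant to control after 0.1 was added to each FPKM, and 1.5-fold (0.58 on the log2 scale) was the size counted.

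In this family, BAX and BAK perforate the outer mitochondrial membrane and release cytochrome c, which starts the caspase cascade. The survival proteins bind and restrain them. BH3-only proteins answer stress or the loss of trophic support by occupying the survival proteins, or by switching on BAX and BAK directly. In sympathetic neurons deprived of nerve growth factor, death runs through BAX, and BIM (from *Bcl2l11*), PUMA (from *Bbc3*) and HRK are known to be induced, while the survival of young neurons before they depend on nerve growth factor is known to draw on MCL1 and BCL-X.

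What the proteins share is the BH3 segment, the helix with which one member grips the groove of another. The coding bases of its core are shown because this short piece is what places genes of such different levels in 1 family. A script searched complete coding sequences of the mm9 GENCODE M1 annotation for a leucine codon, any 2 codons, a codon for alanine, isoleucine, leucine, methionine or valine, then glycine or alanine, aspartate, and aspartate, glutamate or glycine. The pattern was written from knowledge of these proteins. It occurred once in each of the 9 coding sequences searched, and in 352 of 21463 protein-coding genes (1.64%). The coding sequence of *Pmaip1* was left out of these 9, so whether the pattern holds for every member was not tested. Each line gives 30 bases of the coding strand, 5′ to 3′, from 1 codon before the leucine, and capitals mark the codons for glycine or alanine and for aspartate.
Bcl2: accctccgccgggctGGGGATgacttctct
Bcl2l1: gcgctgagagaggcaGGCGATgagtttgaa
Mcl1: accctgcggcgcgtgGGCGACggcgtgcag
Bax: tgtctccggcgaattGGAGATgaactggac
Bak1: cagcttgctctcatcGGAGATgatattaac
Bcl2l11: gagctgcggcggatcGGAGACgagttcaac
Bbc3: cagctgcggcggatgGCGGACgacctcaac
Bid: catctcgcccaaataGGCGATgagatggac
Hrk: cggctgcaggcgctgGGCGACgagctgcac

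All 9 segments lie within coding sequence of a single exon. The segment of *Bcl2* is at chr1:108609152-108609181 on the minus strand (exon 1 of 2), that of *Bcl2l1* at chr2:152655433-152655462 on the minus strand (exon 2 of 3), and that of *Mcl1* at chr3:95463356-95463385 on the plus strand (exon 2 of 4). Those of *Bax* and *Bak1* are at chr7:52721367-52721396 and chr17:27159476-27159505, both on the minus strand (exon 3 of 6 and exon 4 of 6). Among the BH3-only genes, the segment of *Bcl2l11* is at chr2:127972883-127972912 on the plus strand (exon 3 of 4) and that of *Bbc3* at chr7:16899119-16899148 on the plus strand (exon 3 of 4). That of *Bid* is at chr6:120847307-120847336 on the minus strand (exon 4 of 6), and that of *Hrk* at chr5:118619897-118619926 on the plus strand (exon 1 of 2). A GGN codon for glycine stands before the aspartate in 8 of the 9, and *Bbc3* has GCG for alanine there. The aspartate codon is GAT in 5 and GAC in 4. The segments of *Bcl2l11* and *Bbc3* are equal at 24 of 30 bases, the most of any pair, and those of *Bcl2* and *Bak1* at 11. Of the 5 complete *Bcl2l11* transcripts in the annotation, 4 hold the pattern. An FPKM per gene does not separate such isoforms, nor the long from the short form of BCL-X.

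In control ganglia at E11.5, 2 members stood far above the rest, the survival gene *Mcl1* and the executioner gene *Bax*. *Mcl1*, whose protein is short-lived and must be renewed constantly, had 56.6 FPKM, above 89.0% of the listed genes. *Bax* had 56.2 FPKM, above 88.9%. *Bcl2l1*, which encodes BCL-X, followed at 24.1 FPKM. The founding gene *Bcl2* had 9.34 FPKM, above 44.5% of the listed genes, and *Bak1* had 7.42. All BH3-only genes with a row were lower still, with *Bcl2l11* at 6.43 FPKM, *Bid* at 4.35, *Bbc3* at 4.07 and *Hrk* at 3.50. With no spread between libraries, neighbours in this order cannot be told apart. Summed over members, survival genes took 52.3% of the FPKM of the 9 genes, executioner genes 37.0% and BH3-only genes 10.7%.

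**Figure D1:**
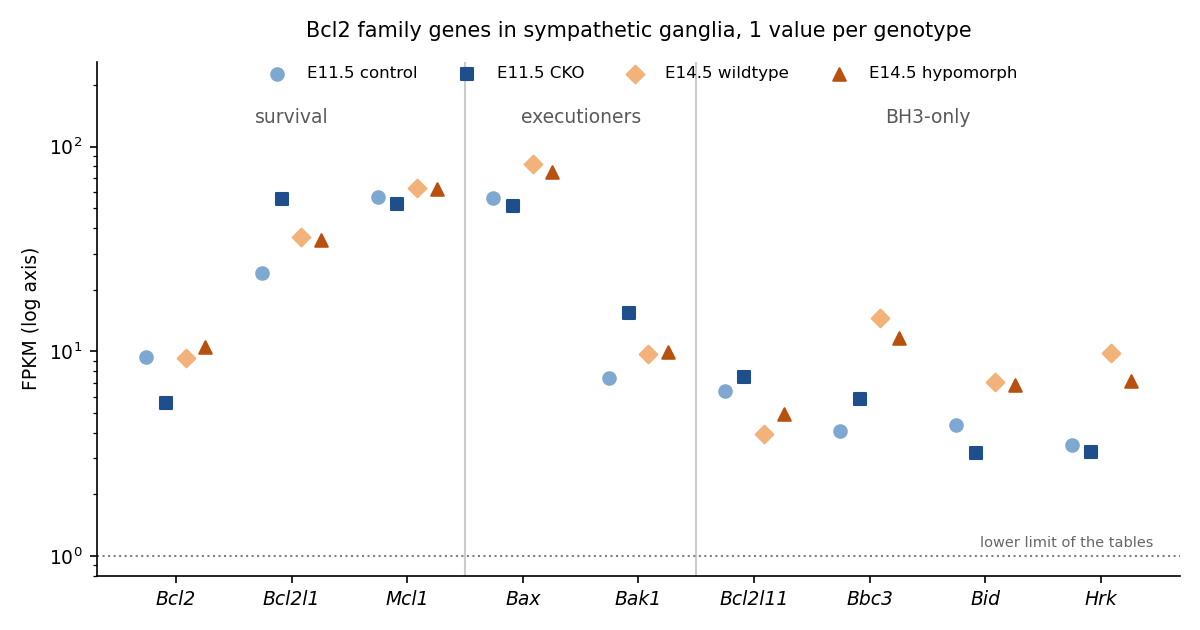
FPKM (log axis) of the 9 listed members in the 4 groups, with 1 point per genotype that combines 2 libraries and no error bar because single libraries are not given. *Bcl2l1* and *Bak1* of CKO ganglia (squares) stand above the control circles, while *Mcl1* and *Bax* lie close together in all groups of a stage.

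*Isl1* itself, the targeted gene, had 133 FPKM in control ganglia and 40.0 in those of the CKO at E11.5, and 162 in wildtype ganglia and 83.1 in hypomorphic ones at E14.5. Sympathetic neuron genes were present in all groups (*Dbh* at 543 to 608 FPKM). The CKO libraries also differed in their makeup. Of 9 erythroid markers, 7 were listed at E11.5, and 6 of these were at least 1.5-fold higher in CKO ganglia. *Alas2*, the erythroid enzyme of heme synthesis, had 29.0 and 859 FPKM, and *Hba-x*, an embryonic alpha-type globin, had 2572 and 53627. The remaining one, the embryonic beta-type globin *Hbb-y*, had 7552 FPKM in control ganglia and was listed at 0 in CKO ganglia. All 6 neural crest and glial markers, 4 of 5 listed macrophage markers and 5 of 7 mesenchyme markers were at least 1.5-fold higher too. The summed FPKM of the erythroid list was 10552 in control ganglia and 60832 in those of the CKO, that of the neural crest and glial list 169 and 375, of the macrophage list 29.6 and 67.1, and of the mesenchyme list 575 and 1002. *Hbb-y* alone gave 7552 of the erythroid sum in control ganglia and 0 of that in the CKO, and why it is listed at 0 was not tested. Of 5 endothelial markers 2 were past 1.5-fold, with sums of 39.7 and 52.4. Of 8 sympathetic neuron markers 2 were at least 1.5-fold lower in CKO ganglia, among them *Hand2*, with sums of 2697 and 2436. At E14.5 the sums were 4607 in wildtype ganglia and 3781 in hypomorphic ones for neurons, 361 and 405 for neural crest and glia, 1391 and 1547 for mesenchyme, 53.1 and 73.6 for endothelium, 34.4 and 40.7 for macrophages and 1700 and 2431 for erythroid genes. When the CKO values were rescaled so that all genes outside the erythroid list had the same sum in both genotypes, the log2 ratios shifted by about -0.26. The summed FPKM of all genes as deposited was 476289 in control and 617263 in CKO columns, and setting these whole sums equal, erythroid genes included, would shift the ratios by -0.37. As deposited, 2552 genes were at least 1.5-fold higher in CKO ganglia and 1746 as much lower (59.4% higher). After the rescaling without erythroid genes, 1580 were higher and 3176 lower (33.2% higher). In whole ganglia, fewer cells of a type and less RNA per cell cannot be told apart.

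Among the members, 2 were at least 1.5-fold higher in *Isl1* CKO than in control ganglia at E11.5 and 1 was at least 1.5-fold lower, and the other 6 listed genes were closer than that. Over all listed genes, 18.9% were as much higher and 12.9% as much lower. The median log2 ratio of the 9 members was -0.11, beside 0.05 over all genes. It turned to 0.22 when only genes with at least 5 FPKM in either genotype were kept. *Bbc3* (4.07 and 5.81 FPKM) passes that filter only through its CKO value, so the 0.22 depends in part on the filter. After rescaling without erythroid genes the medians of the members and of all genes were -0.36 and -0.20, with 2 members higher and 2 lower. At that scaling 1580 of all 13506 genes were higher and 3176 lower.

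The larger differences split the survival genes. *Bcl2l1* had 24.1 FPKM in control ganglia and 55.4 in those of the CKO, 2.30-fold higher, and 6.06% of all genes had a higher ratio. *Bcl2* had 9.34 and 5.59 FPKM, 1.67-fold lower with a log2 ratio of -0.73, and 9.11% of all genes had a lower one. *Mcl1* was similar in both as deposited, with 56.6 and 52.6 FPKM (log2 ratio -0.11, and -0.36 after rescaling). *Mcl1* was therefore well above *Bcl2l1* in control ganglia, while the 2 were close in CKO ganglia, where their order cannot be told. *Bcl2l1* made up 26.8% of the survival sum in control and 48.8% in CKO ganglia, and *Bcl2* 10.4% and 4.92%. The ratio of *Bcl2l1* to *Bcl2*, which does not depend on how a column is scaled, was 2.58 in control ganglia and 9.91 in those of the CKO. After rescaling, the log2 ratios were 0.94 for *Bcl2l1* and -0.98 for *Bcl2*, so both kept their side. BCL-X is also known for keeping maturing red cells alive, and the erythroid markers above were higher in the same libraries as *Bcl2l1*, and their part in its level was not tested.

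The executioner genes also differed from each other. *Bak1* had 7.42 FPKM in control ganglia and 15.4 in those of the CKO, 2.08-fold higher with a log2 ratio of 1.05, and 7.79% of all genes had a higher ratio. *Bax* had 56.2 and 51.3 FPKM, with a log2 ratio of -0.13. *Bax* remained the more abundant in both genotypes, but the ratio of *Bax* to *Bak1* was 7.57 in control ganglia and 3.32 in those of the CKO. *Bak1* had a log2 ratio of 0.79 after rescaling and *Bax* one of -0.39. The part of the neural crest, glial, macrophage, mesenchyme or erythroid genes in the level of *Bak1* was not tested.

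No BH3-only gene with a row reached 1.5-fold at E11.5 in the values as deposited. *Bbc3*, a direct target of p53, was nearest on the higher side, with 4.07 FPKM in control ganglia and 5.81 in those of the CKO (log2 ratio 0.51). *Bid*, whose protein is cleaved by caspase-8 and links death receptors to mitochondria, was nearest on the lower side, with 4.35 and 3.18 FPKM (-0.44). *Bcl2l11*, whose product BIM binds all survival proteins, had 6.43 and 7.49 FPKM (0.22). *Hrk*, a gene expressed mainly in neurons, had 3.50 and 3.20 (-0.12). Only *Bid* passed 1.5-fold after rescaling (-0.69), and *Bcl2l11* changed sign there (-0.03), so its direction is not settled by these files. Summed over these 4 genes, control ganglia had 18.3 FPKM and CKO ganglia 19.7.

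**Figure D2:**
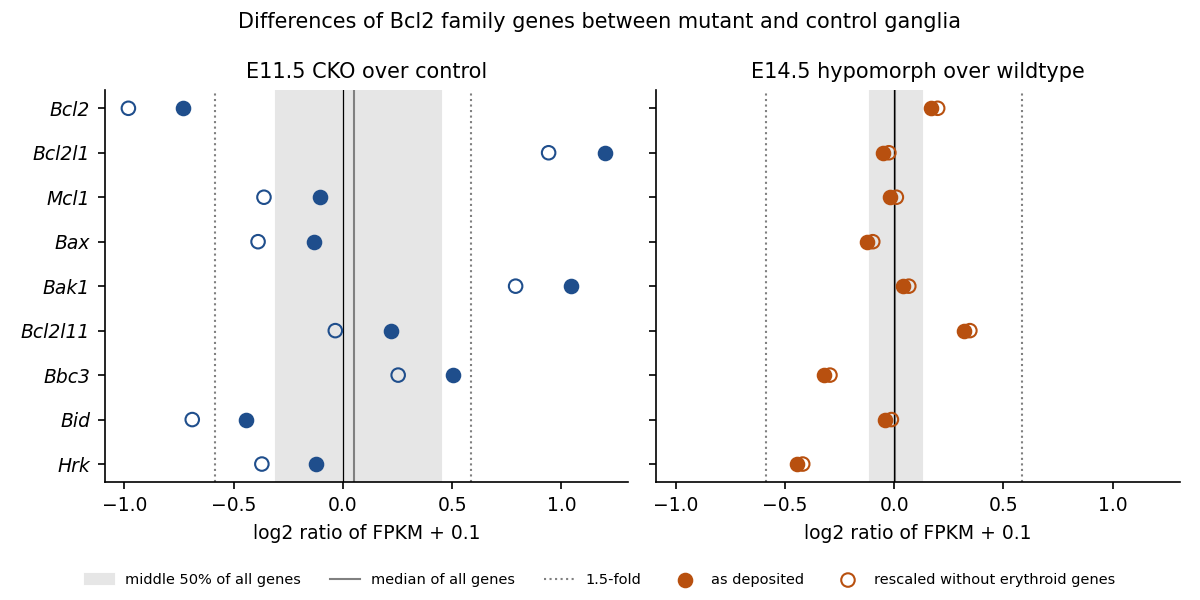
Log2 ratio of FPKM + 0.1 in mutant to control ganglia for each listed member at E11.5 (left) and E14.5 (right), as deposited (filled) and after rescaling without erythroid genes (open), 1 value per genotype. The grey band is the range between the quartiles of all genes and dotted lines mark 1.5-fold. Among filled points, *Bcl2l1* (2.30-fold higher), *Bak1* (2.08-fold higher) and *Bcl2* (1.67-fold lower) pass it at E11.5. Among open points *Bid* (-0.69) passes it there as well, and no point passes it at E14.5.

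Set against each other within a column, the survival genes together had 1.41 times the FPKM of the executioner genes in control and 1.70 times in CKO ganglia. The survival sum was 90.0 FPKM in control ganglia and 114 in those of the CKO, and the executioner sum 63.6 and 66.7. Most of the survival sum came from *Mcl1* and *Bcl2l1*, and without *Mcl1* the ratio was 0.53 in control ganglia and 0.91 in those of the CKO. BH3-only genes amounted to 0.20 of the survival sum in control ganglia and 0.17 in those of the CKO. These are ratios of RNA. The proteins differ in turnover, and none was measured here.

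**Figure D3:**
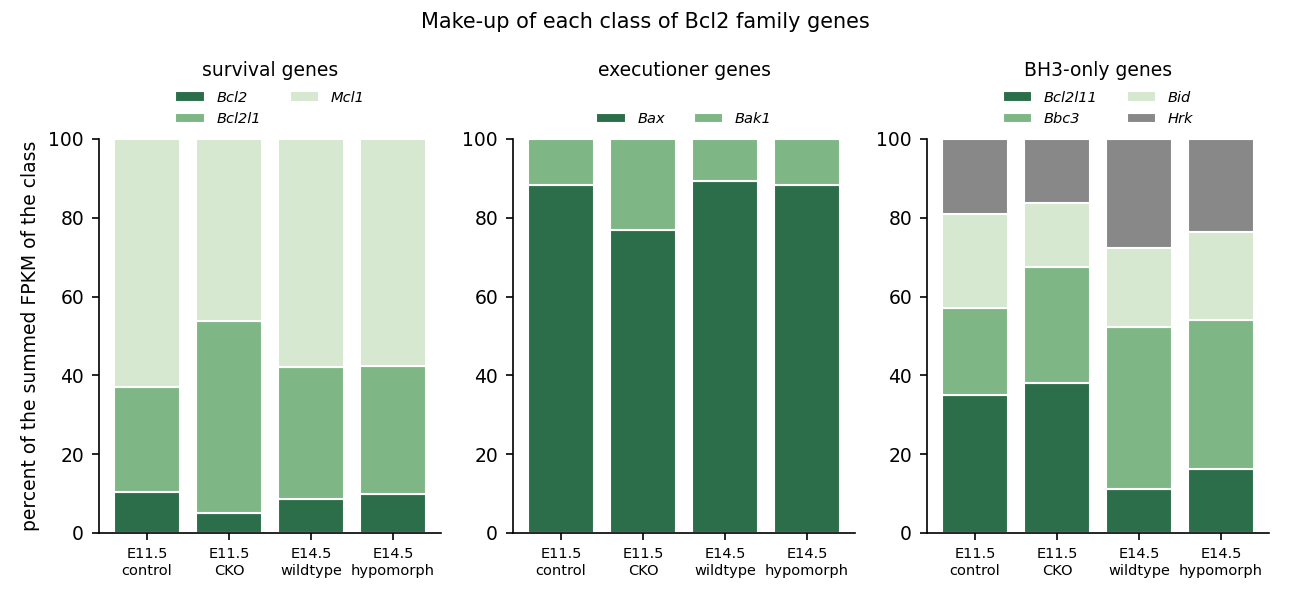
Share of each listed member in the summed FPKM of its class, in percent, for the 4 groups, with each bar adding up to the whole class. In E11.5 CKO ganglia *Bcl2l1* takes 48.8% of the survival sum (26.8% in control) and *Bak1* 23.1% of the executioner sum (11.7% in control), while both E14.5 bars of these classes look alike.

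At E14.5 no member was 1.5-fold apart between hypomorphic and wildtype ganglia, in either direction. Over all genes 2.89% were at least 1.5-fold higher and 2.12% as much lower, so few genes passed this size at all. The median log2 ratio of the 9 members was -0.04, beside 0.003 over all genes. The survival genes were nearly level, with *Bcl2* at 9.30 FPKM in wildtype ganglia and 10.5 in hypomorphic ones (log2 ratio 0.17), *Bcl2l1* at 36.3 and 35.0 (-0.05) and *Mcl1* at 62.8 and 62.0 (-0.02, and 0.01 after rescaling). Among the executioner genes *Bax* had 82.2 and 75.2 FPKM (-0.13), and *Bak1* had 9.68 and 9.95 (0.04).

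The members with the larger differences at this stage were BH3-only genes. *Hrk* had 9.84 FPKM in wildtype ganglia and 7.19 in hypomorphic ones, a log2 ratio of -0.45, and 3.50% of all genes had a lower one. *Bbc3* had 14.6 and 11.6 FPKM (-0.32), with 6.34% of genes lower. *Bcl2l11* went the other way, with 3.95 and 4.95 FPKM (0.32), and 9.26% of genes had a higher ratio. *Bid* had 7.05 and 6.85 FPKM (-0.04). Each of these signs was the same after rescaling. The BH3-only sum was 35.4 FPKM in wildtype ganglia and 30.6 in hypomorphic ones, and the ratio of survival to executioner genes 1.18 and 1.26. These differences were not compared with the spread between libraries.

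The control ganglia of the 2 stages were set side by side as well, although the tables were normalized separately and the embryos differed in Cre and reporter, so that stage, background and table cannot be told apart. Of 12727 genes in both tables, 29.7% were at least 1.5-fold higher and 12.7% as much lower at E14.5, and the median log2 ratio was 0.24. Among the 9 members, 4 were as much higher and 1 lower. The larger ratios were those of BH3-only genes. *Bbc3* had 4.07 FPKM at E11.5 and 14.6 at E14.5 (3.58-fold), and *Hrk* had 3.50 and 9.84 (2.82-fold). *Bid* was 1.62-fold higher at the later stage and *Bcl2l1* 1.51-fold, just past the limit, while *Bcl2l11* was 1.63-fold lower. *Bax* was just inside the limit at 1.46-fold higher, *Bak1* had a log2 ratio of 0.38, *Mcl1* of 0.15, and *Bcl2* stood at 9.34 and 9.30 FPKM. With log2 ratios centred on the median of all genes, 2 members, *Bbc3* and *Hrk*, were past 1.5-fold on the higher side. Within columns, *Bcl2l11* was the largest of the listed BH3-only genes at E11.5 (35.0% of their sum in controls) and the smallest at E14.5 (11.2%), whereas *Bbc3* took 22.2% and 41.1%. BH3-only genes amounted to 0.20 of the survival sum at E11.5 and 0.33 at E14.5, and survival to executioner genes stood at 1.41 and 1.18.

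The remaining genes of the family were read from a list of 16. At E11.5, 9 of them had a row. Of these, 3 were at least 1.5-fold higher in CKO ganglia and 0 lower, beside 18.9% and 12.9% of all genes. Their median log2 ratio was 0.46 as deposited. *Bnip3l*, which encodes the mitochondrial receptor NIX that clears mitochondria from maturing red cells, had 50.6 FPKM in control ganglia and 141 in those of the CKO (log2 ratio 1.47). *Bnip3*, a hypoxia-inducible relative, had 17.2 and 32.7 (0.92), and *Bmf*, a BH3-only gene tied to the cytoskeleton, 6.66 and 12.3 (0.88). *Bad*, whose protein is held inactive by trophic signalling through AKT, had 18.7 and 27.7 FPKM (0.56), the survival gene *Bcl2l2* (BCL-W) 7.66 and 5.25 (-0.54), and *Bok*, another executioner, 11.6 and 10.0 (-0.20). *Becn1*, an autophagy gene with a BH3 segment, had 48.0 and 56.7 (0.24), *Bcl2l12* a log2 ratio of 0.46, and *Bcl2l13* 24.6 and 20.2 (-0.28). At E14.5, 10 had a row and 0 were past 1.5-fold, with ratios from -0.34 (*Bnip3*) to 0.36 (*Bcl2l12*). *Bik*, listed only at that stage, had 1.06 FPKM in wildtype ganglia and 0.967 in hypomorphic ones. *Bcl2l10*, *Bcl2a1a*, *Bcl2a1b*, *Bcl2a1d*, *Bcl2l14* and *Bcl2l15* had no row in either table.

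Genes that act around the family were read from 6 lists with 95 genes in all. At E11.5, 85 of the 95 had a row, 15 were at least 1.5-fold higher and 10 as much lower in CKO ganglia, and their median log2 ratio was -0.03. These shares, 17.6% and 11.8% of the listed genes, were close to the 18.9% and 12.9% of all genes. With equal sums outside the erythroid list, 6 were higher and 21 lower. At E14.5, 83 had a row, 1 was higher and 2 were lower, with a median of -0.04.

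Downstream of BAX and BAK, the 16 genes of the caspase cascade were all listed. At E11.5, 2 were at least 1.5-fold higher in CKO ganglia and 0 lower, beside 18.9% and 12.9% of all genes. *Casp8*, the initiator caspase of death receptors, had 2.99 FPKM in control ganglia and 4.80 in those of the CKO (log2 ratio 0.67), and *Gas2*, a caspase substrate of the cytoskeleton, had 10.1 and 16.7 (0.73). *Parp1*, a caspase substrate that serves DNA repair, had 80.0 and 60.5 FPKM (-0.40), and *Cycs*, which encodes cytochrome c, 68.2 and 63.1 (-0.11). At E14.5 none of the 16 was past 1.5-fold. The largest ratios were those of *Casp8* (2.45 and 3.50 FPKM, 0.50) and of *Diablo*, the mitochondrial antagonist of caspase inhibitors (96.2 and 68.5 FPKM, -0.49). Of the 10 inhibitor of apoptosis genes, 5 were listed at each stage. *Birc3* had 1.08 and 2.14 FPKM at E11.5 (0.92), *Birc6* 21.9 and 14.1 (-0.62), and *Xiap*, the direct inhibitor of caspases, 20.9 and 20.5 (-0.03). *Birc5*, which encodes survivin and serves mitosis, had 97.4 and 75.4 FPKM at E11.5 (-0.37) and 42.5 and 57.3 at E14.5 (0.43), where *Birc6* had 26.2 and 25.3 (-0.05) and *Xiap* 16.3 and 18.4 (0.18).

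Upstream, of 20 genes for p53 and its targets 17 were listed at E11.5, with 4 at least 1.5-fold higher and 3 as much lower in CKO ganglia, beside 18.9% and 12.9% of all genes. *Trp53* itself had 54.5 FPKM in control ganglia and 55.7 in those of the CKO (log2 ratio 0.03). *Perp*, a membrane protein gene and 1 of the 4 higher, had 0.278 and 1.47 FPKM (2.06), so it reached 1 FPKM only in CKO ganglia. *Zmat3*, an RNA-binding target of p53, had 11.8 and 5.02 (-1.21). *Ei24* had 45.7 and 70.6 (0.63). At E14.5, 15 were listed and 0 passed 1.5-fold, with *Trp53* at 36.2 FPKM in wildtype ganglia (0.07), *Ei24* at 51.5 and 52.0 (0.01), *Eda2r* at 0.869 and 1.17 (0.39) and the largest ratio at *Gtse1*, a gene of the G2 and S phases (8.65 and 12.1 FPKM, 0.48).

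The list for trophic factor withdrawal holds the receptors, the JNK pathway and the FOXO factors that lead to *Bbc3*, *Bcl2l11* and *Hrk* in deprived neurons. At E11.5, 23 of 24 genes were listed, 2 at least 1.5-fold higher and 5 as much lower in CKO ganglia. These were 8.70% and 21.7% of the listed genes, beside 18.9% and 12.9% of all genes. *Egln3*, a prolyl hydroxylase known to be needed for the death of sympathetic neurons that lose nerve growth factor, had 32.8 FPKM in control ganglia and 2.13 in those of the CKO (log2 ratio -3.89). *Foxo1* had 6.68 and 11.6 FPKM (0.79), and *Jun*, the factor activated by JNK, 51.0 and 54.3 (0.09). The abundant members were *Akt1*, a survival kinase, with 109 and 136 FPKM (0.31) and *Ret* with 106 and 97.6 (-0.11). Beside 2.89% and 2.12% of all genes at E14.5, 1 was higher and 2 were lower. Among these, *Egln3* had 123 FPKM in wildtype ganglia and 72.5 in hypomorphic ones (-0.77), and *Ret*, a receptor for GDNF family factors, 68.8 and 130 (0.91). *Foxo3*, which acts on *Bcl2l11* and *Bbc3*, had 34.8 and 25.5 FPKM (-0.44), while *Jun* had 60.2 and 59.3 (-0.02), *Akt1* 152 and 141 (-0.11), and *Kif1b*, a motor protein gene, 142 and 120 (-0.24).

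**Figure D4:**
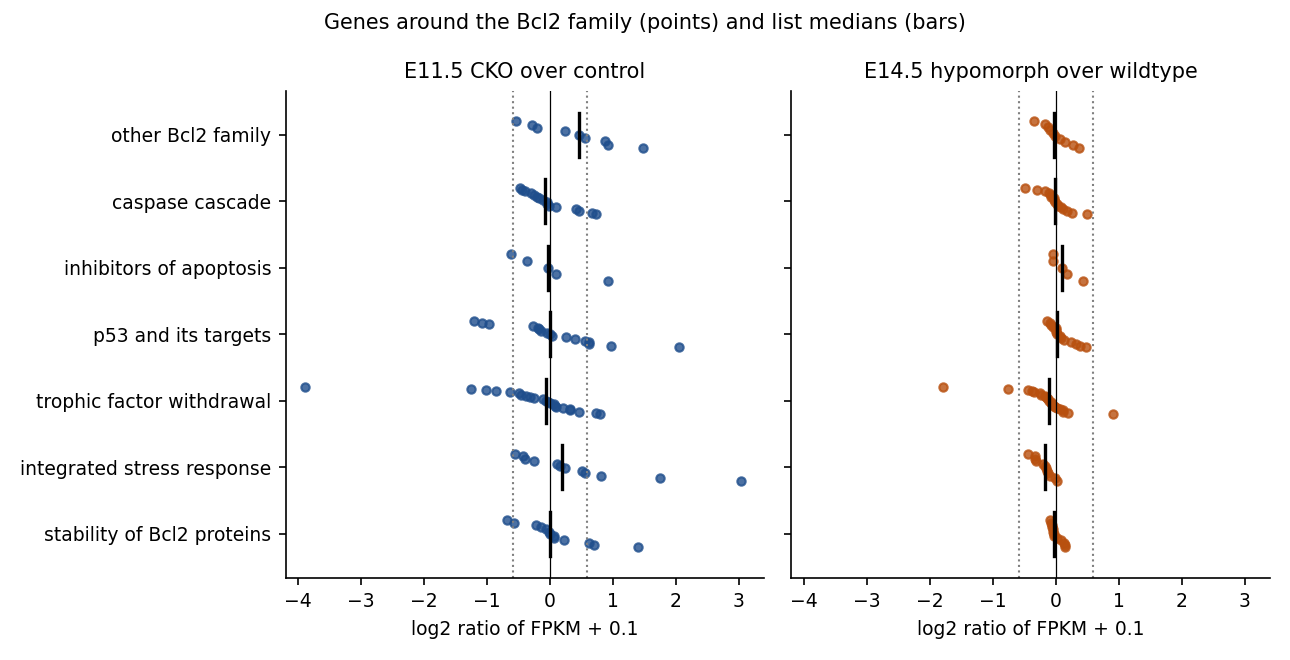
Log2 ratio of FPKM + 0.1 in mutant to control ganglia for every listed gene of the other Bcl2 family genes and of 6 lists around the family (points), at E11.5 (left) and E14.5 (right), with list medians as bars and 1.5-fold as dotted lines. At E11.5 the points reach from -3.89 (*Egln3*) to 3.04 (*Trib3*), and at E14.5 3 points are past 1.5-fold, all in the list for trophic factor withdrawal (1 higher and 2 lower).

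The list of genes whose products steady or remove Bcl2 family proteins also holds others, such as *Vdac1*, *Ppif* and *Mtch2*. Of its 14 genes, 13 were listed at both stages. At E11.5, 3 were at least 1.5-fold higher in CKO ganglia and 1 lower, beside 18.9% and 12.9% of all genes. *Tpt1*, whose product is known to stabilise MCL1, had 1554 FPKM in control ganglia and 4096 in those of the CKO (log2 ratio 1.40), and *Bag1*, a co-chaperone named for binding BCL2, 85.7 and 140 (0.71). *Huwe1*, the ubiquitin ligase of MCL1, was lower with 51.8 and 32.0 FPKM (-0.69). The channel genes *Vdac1* and *Vdac2*, the latter a docking site for BAK, had 213 and 210 FPKM (-0.02) and 138 and 144 (0.06). At E14.5 all 13 lay between -0.10 (*Bag6*, 133 and 125 FPKM) and 0.15 (*Ppif*, 9.62 and 10.7 FPKM), with *Tpt1* at 115 and 128 and *Vdac1* at 199 and 194.

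Over all 4 columns, the 3 genes nearest to *Bcl2l1* in their pair of log2 ratios, among 8583 genes that reach 5 FPKM in every column, were *Amdhd2* (1.18 at E11.5 and -0.06 at E14.5), *Fars2* (1.18 and -0.05) and *Anxa7* (1.18 and -0.07). Likeness here is the distance between 2 pairs of differences and rests on 4 values per gene.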

How the data were processed

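RNA-seq of pooled sympathetic ganglia was compared at E11.5 (*Isl1* CKO and control) and at E14.5 (*Isl1* hypomorphic and wildtype), with 2 libraries per genotype. PolyA RNA was sequenced, and the deposited FPKM were computed by the authors with TopHat (on mm9, by the study's methods) and cuffdiff, both libraries of a genotype giving 1 value. The submitters' processing notes instead name dm3, a fly build, with Bowtie, TopHat 1.3.1 and Cuffdiff 1.3.0. The tables also hold the authors' log2 fold changes and p-values, which were not used. Read numbers are not given in the sources used here, so depth and precision are unknown.

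Log2 ratios were computed with a pseudocount of 0.1 over all genes reaching 1 FPKM in a genotype, with 1.5-fold as the size counted. No test was made, since values of single libraries are not given and the authors' p-values were left aside. Members and lists were chosen with earlier results of these data known. Named genes were all members, the other family genes, and of each list the 2 most abundant and the 2 with the largest absolute ratio per stage. *Jun*, *Foxo1*, *Foxo3*, *Huwe1*, *Vdac2*, *Ddit3*, *Chac1*, *Vdac3*, *Dbh* and the markers were named after their values were seen. Some genes that this rule names are not reported here. The steps were tested on simulated data. Sequences and coordinates come from the mm9 GENCODE M1 annotation. Python 3.11.15, numpy 2.4.6, pandas 2.3.3, matplotlib 3.10.9 and Biopython 1.88 were used. The alternatives were other pseudocounts (1 and 0.01), centring on the median, rescaling without erythroid genes, fold sizes of 2 and 1.2, and other filters on low values.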

Additional observations from a re-analysis of the deposited data

How the results depend on the processing

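All 72 log2 ratios of single members between genotypes, recomputed with another pseudocount, with centring or with rescaling, moved by at most 0.26, and 2 took another sign, *Bcl2l11* at E11.5 and *Mcl1* at E14.5, both after rescaling. Of 36 such values between the stages, 2 took another sign, *Bcl2* after rescaling (0.03) and *Mcl1* after centring (-0.08). The 2 members higher at E11.5 stayed at 2 under every alternative, applied 1 at a time, except a fold of 1.2, which gave 3. The filters on low values could not alter this count, since *Bcl2l1* and *Bak1* exceed 5 FPKM in both genotypes. After rescaling their log2 ratios were 0.94 and 0.79, so neither gene is 2-fold higher at that scaling. The 1 lower member became 2 after rescaling without erythroid genes and with a fold of 1.2, and 0 with a fold of 2. At E14.5 the counts of 0 became 1 higher and 2 lower with a fold of 1.2. Of the pathway genes at E11.5, 6 were higher and 21 lower after rescaling, 4 and 5 with a fold of 2, and 23 and 24 with a fold of 1.2. With at least 1 FPKM required in both genotypes these counts were 12 and 9. At E14.5 these counts were 0 and 1 with a fold of 2, and 7 and 11 with a fold of 1.2. Over all 13506 genes at E11.5, 1580 were higher and 3176 lower after rescaling. Counts of all genes at the other fold sizes are not given here. The cause was not tested beyond the construction of each alternative. The median log2 ratio of the members at E11.5, -0.11, was 0.22 with genes of at least 5 FPKM in either genotype and kept its sign otherwise. Between the controls of the stages, the 4 higher members became 2 after centring. The ratio of survival to executioner genes without *Mcl1* was 0.53, 0.91, 0.50 and 0.53 in E11.5 control, E11.5 CKO, E14.5 wildtype and E14.5 hypomorphic ganglia. No paired analysis was possible because the columns combine the libraries of a genotype, and for the same reason no library could be left out.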

Other observations

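Genes of the integrated stress response, which can induce BH3-only genes, differed in both directions at E11.5 and were mostly lower in hypomorphic ganglia at E14.5, none by 1.5-fold. All 12 were listed at both stages. At E11.5, 3 were at least 1.5-fold higher in CKO ganglia and 0 lower, beside 18.9% and 12.9% of all genes. Of these 3, *Atf3* and *Chac1* (0.586 and 1.11 FPKM) reached 1 FPKM only in CKO ganglia. The median log2 ratio at that stage was 0.19. *Trib3*, a pseudokinase gene downstream of CHOP, had 2.15 FPKM in control ganglia and 18.4 in those of the CKO (3.04), and *Atf3* had 0.937 and 3.39 (1.75). *Ddit3*, which encodes CHOP itself, had 11.1 and 8.18 FPKM (-0.43), *Atf4* 51.0 and 34.6 (-0.56), *Xbp1* 46.1 and 65.9 (0.52), and the abundant chaperone gene *Hspa5* 406 and 440 (0.12). At E14.5, 11 of the 12 had a ratio below 0, some by very little (*Eif2ak3*, -0.009). The ratios ran from -0.44 (*Atf3*, only 1.56 and 1.13 FPKM) to 0.02 (*Hspa5*). Their median was -0.17, beside 0.003 over all genes, and none of these differences was compared with the spread between libraries. *Asns*, an asparagine synthetase gene, had 49.4 and 39.1 FPKM at that stage (-0.34). *Ddit3* was chosen after its values were seen.

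Some genes of the lists differed between the tables of the stages by far more than between genotypes. *Cycs* had 68.2 FPKM in E11.5 control and 1.23 in E14.5 wildtype ganglia, *Tpt1* 1554 and 115, and *Vdac3* 168 and 27.2. These were chosen after their values were seen, and what sets the tables apart was not tested.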
